A study of Homo sapiens with 9 samples.

Results

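The mRNA of 10 transcription factor genes of the neural plate border and the neural crest was read from the counts of human early neuroepithelial cultures grown on curved or flat plates. They are the AP-2 factors TFAP2A, TFAP2B and TFAP2C, the border factors PAX3, MSX1, MSX2 and DLX5, and the crest factors SNAI1, SNAI2 and SOX10. They were chosen by gene symbol, and all 10 were found among the 62710 Ensembl genes of the table. Every group was derived from H9 cells of genotype WT, a human embryonic stem cell line that is long established. Cells of all groups spent 72 h in the pluripotency medium mTeSR1 on silicone plates (PDMS) coated with Matrigel, and then 48 h in N2B27 medium with SB431542 and LDN, which block TGF-beta and BMP receptors (dual SMAD inhibition). For the last 24 h the inhibitors stayed on while the plate was bent to a concave shape, bent to a convex shape, or kept flat as the control. Each group had 3 libraries, numbered 1 to 3, so 9 in all. Whether the libraries of a group are separate cultures is not in the labels, so the p-values speak only of the spread among these libraries, and that spread could be technical.

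The neural plate border lies between the neural plate and the surface ectoderm, and the neural crest arises from it. Intermediate BMP signalling together with WNT and FGF signals turns on border factors such as TFAP2A, MSX1 and PAX3, and these in turn promote crest specifiers such as SNAI2, FOXD3 and SOX10. Crest cells then lose epithelial adhesion and migrate, in the epithelial-mesenchymal transition that SNAI proteins promote. Dual SMAD inhibition removes the BMP input and is widely used to direct pluripotent cells to neural ectoderm.

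TFAP2C, SNAI1 and SOX10 carried most of the signal, and none of the 10 differed between plate shapes past the test. TFAP2C mRNA was higher and SOX10 mRNA lower in the 3 libraries numbered 3 than in the other 6, whatever the plate shape. TFAP2A, TFAP2B and DLX5 were at the edge of detection. Libraries held from 49420082 to 64763412 counts. Values are CPM, in which counts are scaled by TMM-adjusted library size, and 3 counts correspond to between 0.0438 and 0.0632 CPM, depending on the library. The markers of the labelled fate were mixed. SOX2 stood at 470 to 822 CPM and OTX2 at 257 to 318 CPM, but PAX6 only at 1.09 to 7.1 CPM. Of the pluripotency factors, POU5F1 was still at 206 to 512 CPM, whereas NANOG stood at 0 to 0.475 CPM. POU5F1 averaged 496 CPM in the libraries numbered 3 and 268.5 CPM in the other 6.

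Several members have relatives, so the most alike stretches of coding sequence are shown first for some of these pairs. In each pair, the 75-base window with the fewest mismatches is given 5′ to 3′ on the coding strand, and capitals mark the bases that differ between the pair. The sequences are GENCODE v29 coding sequences on GRCh38. The SOX10 windows, one set against SOX9 and the other against SOX8, lie in the stretch that encodes the DNA-binding HMG box.
SOX10 (chr22:37983411-37983485, minus strand): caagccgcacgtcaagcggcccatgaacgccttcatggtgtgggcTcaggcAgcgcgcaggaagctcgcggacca
SOX9 (chr17:72121694-72121768, plus strand): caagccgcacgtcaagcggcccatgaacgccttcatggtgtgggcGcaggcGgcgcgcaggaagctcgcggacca
SOX10 (chr22:37983365-37983439, minus strand): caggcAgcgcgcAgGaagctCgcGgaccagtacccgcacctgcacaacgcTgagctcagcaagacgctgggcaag
SOX8 (chr16:982262-982336, plus strand): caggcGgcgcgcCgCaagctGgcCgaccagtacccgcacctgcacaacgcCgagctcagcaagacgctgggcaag
TFAP2C (chr20:56633458-56633532, plus strand): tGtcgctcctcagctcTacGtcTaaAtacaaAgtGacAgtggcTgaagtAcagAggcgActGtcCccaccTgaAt
TFAP2A (chr6:10404545-10404619, minus strand): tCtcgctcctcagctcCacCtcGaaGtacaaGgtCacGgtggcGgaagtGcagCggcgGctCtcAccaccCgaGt
SOX10 and SOX9 differed at 2 of 75 bases and shared a longest identical run of 45 bases in their coding sequences, so a read lying wholly within that run would fit both genes. The read length is not given in the sources used here. SOX10 and SOX8 differed at 6 bases with a longest run of 26, whereas TFAP2C and TFAP2A differed at 16 bases with a longest run of 14. TFAP2C and TFAP2B came closer, at 14 mismatches and a longest run of 26 bases. PAX3 and PAX7, whose windows are not shown, differed at 6 of 75 bases with a longest run of 33. How the counting treated reads that fit several genes is not given in the sources used here. Its part in the SOX10 and PAX3 counts was not tested.

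TFAP2C (ENSG00000087510, chromosome 20, 56629302 to 56639283, 7 exons) encodes AP-2 gamma, a factor of early ectoderm, trophoblast and germ cells. It was the most counted member, with 828 to 2011 counts per library and 44.9% of all counts of the 10 genes. Concave libraries 1, 2 and 3 stood at 20.9, 17.5 and 36.5 CPM, convex ones at 18.4, 18.3 and 33.1 CPM, and flat ones at 20.5, 17.4 and 35.1 CPM. Library 3 was the highest in each shape, and the shapes overlapped throughout. TFAP2A (ENSG00000137203, chromosome 6, 10393186 to 10419659), the AP-2 factor most closely tied to border and crest specification, had 1 to 6 counts per library. Of its annotated exon bases, 11.4% overlap the antisense gene TFAP2A-AS2 and 5.29% overlap TFAP2A-AS1, so even these few reads are uncertain in origin. TFAP2B (ENSG00000008196, chromosome 6, 50818723 to 50847613), another crest AP-2 factor, had 1 or 2 counts in 3 libraries and 0 in the other 6, where 3 counts are the limit that a count of 0 allows. Both failed the filter on low counts and were not tested.

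Among the border factors, PAX3 (ENSG00000135903, chromosome 2, 222199888 to 222298996), a paired-box factor that acts early at the border, was the best counted, with 32 to 95 counts. Its level was 1.24, 1.46 and 0.808 CPM in concave libraries 1, 2 and 3, 1.12, 1.15 and 1.02 CPM in convex ones, and 0.893, 0.674 and 1.03 CPM in flat ones. Concave and flat libraries overlapped, and convex 3 lay below the highest flat library. Its border paralogue PAX7 stood at 0.2147 to 1.17 CPM. The homeobox factors MSX1 (ENSG00000163132, chromosome 4, 4859666 to 4863936) and MSX2 (ENSG00000120149, chromosome 5, 174724533 to 174730893), targets of BMP signalling, had 10 to 18 and 5 to 23 counts per library. DLX5 (ENSG00000105880, chromosome 7, 97020392 to 97024950), a homeobox factor of the border and the non-neural ectoderm, had 19 counts in flat 2 and 0 to 9 in the other 8 libraries, and failed the filter.

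Of the crest factors, SNAI1 (ENSG00000124216, chromosome 20, 49982999 to 49988886), a zinc-finger repressor of E-cadherin, held 33.1% of the members' counts. It stood at 16.4, 15.3 and 21.5 CPM in concave libraries 1, 2 and 3, 16.8, 15.9 and 18.7 CPM in convex ones, and 21.6, 11.1 and 20.2 CPM in flat ones. The lowest was flat 2, the library farthest from the others over all genes, with a chi-square per degree of freedom of 133.1 to 383.5, whereas pairs of the other libraries reached 160.7. The processed pseudogene SNAI1P1 had 45 counts over all 9 libraries, against 9333 for SNAI1. SNAI2 (ENSG00000019549, chromosome 8, 48917604 to 48921740), the paralogue that marks premigratory crest, had 7 to 48 counts. Its level was 0.146, 0.353 and 0.352 CPM in concave libraries 1, 2 and 3, 0.177, 0.744 and 0.493 CPM in convex ones, and 0.12, 0.2105 and 0.297 CPM in flat ones. Convex 2 was the highest library, and library 1 was the lowest in each shape.

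SOX10 (ENSG00000100146, chromosome 22, 37970686 to 37987422), a SoxE factor of crest cells and of the glia derived from them, had 317 to 900 counts, 18.3% of the members' total. It stood at 13.1, 8.62 and 6.56 CPM in concave libraries 1, 2 and 3, 10.3, 7.96 and 7.21 CPM in convex ones, and 14.03, 11.3 and 6.93 CPM in flat ones. Library 1 was the highest and library 3 the lowest in each shape. SOX10 lies on the minus strand inside POLR2F, a subunit gene of RNA polymerases on the plus strand, and 89 of the 3710 annotated exon bases of SOX10 (2.4%) overlap exons of POLR2F. The kit keeps strand, but the strand setting of the counting is not given in the sources used here. POLR2F stood at 43.6 to 92.7 CPM and was highest in flat 2, where SOX10 stood below flat 1 and concave 1 only. In libraries numbered 3 against those numbered 1 and 2, POLR2F had a log2 fold change of -0.12 (95% interval -0.53 to 0.29).

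**Figure D1:**
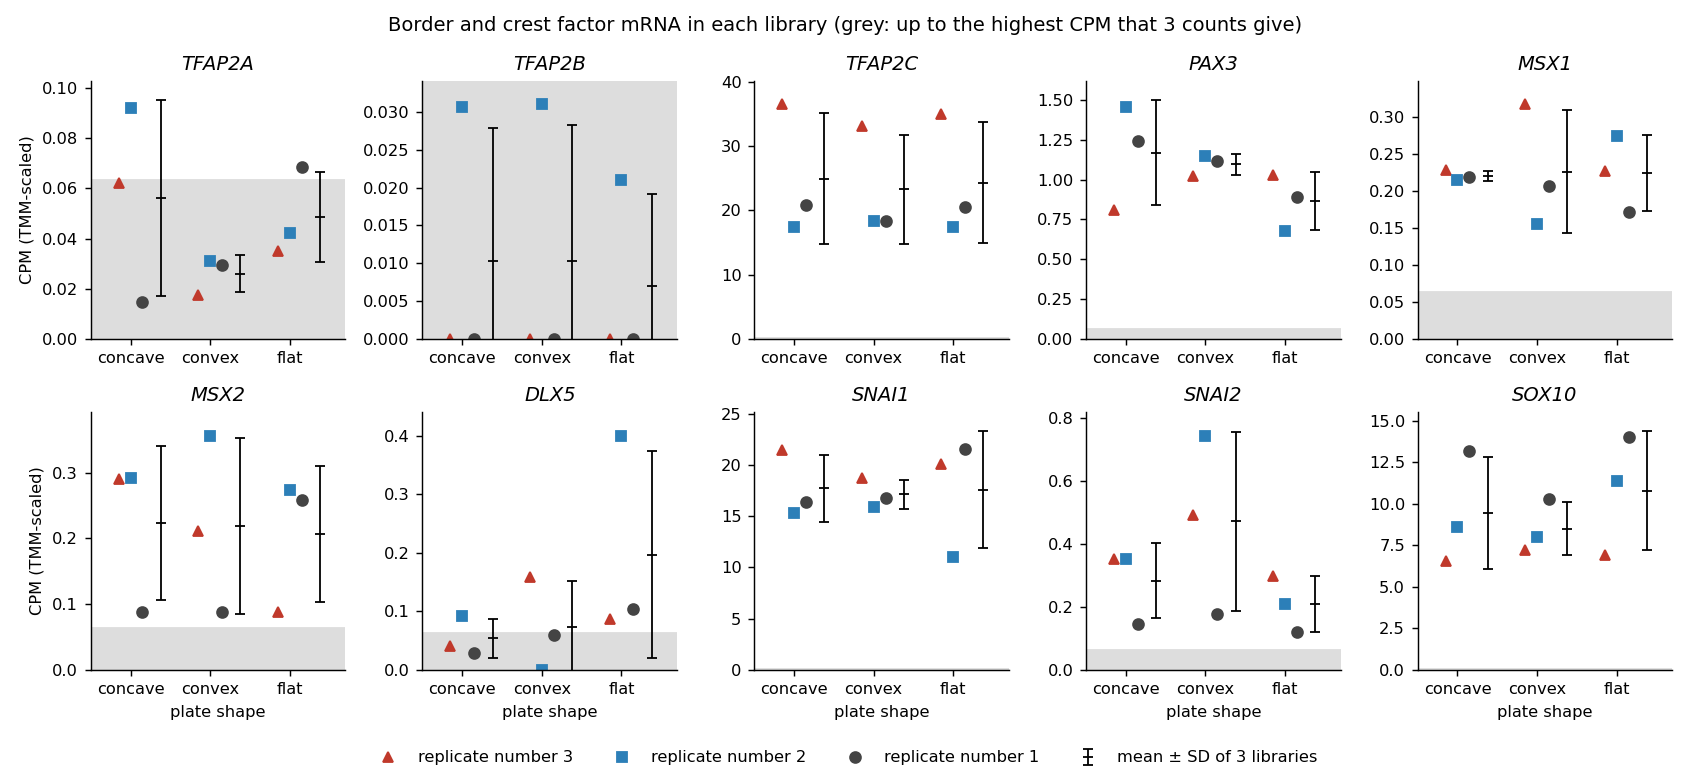
CPM (TMM-scaled, vertical axes, each starting at 0) of the 10 genes in each library, by plate shape, with marker shape and colour giving the replicate number and bars the mean ± SD of 3 libraries. Triangles (number 3) stand highest for TFAP2C and lowest for SOX10 in all 3 shapes, and TFAP2A and TFAP2B lie mostly in the grey band, which ends at 0.0632 CPM, the highest level that 3 counts give in any library.

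**Figure D2:**
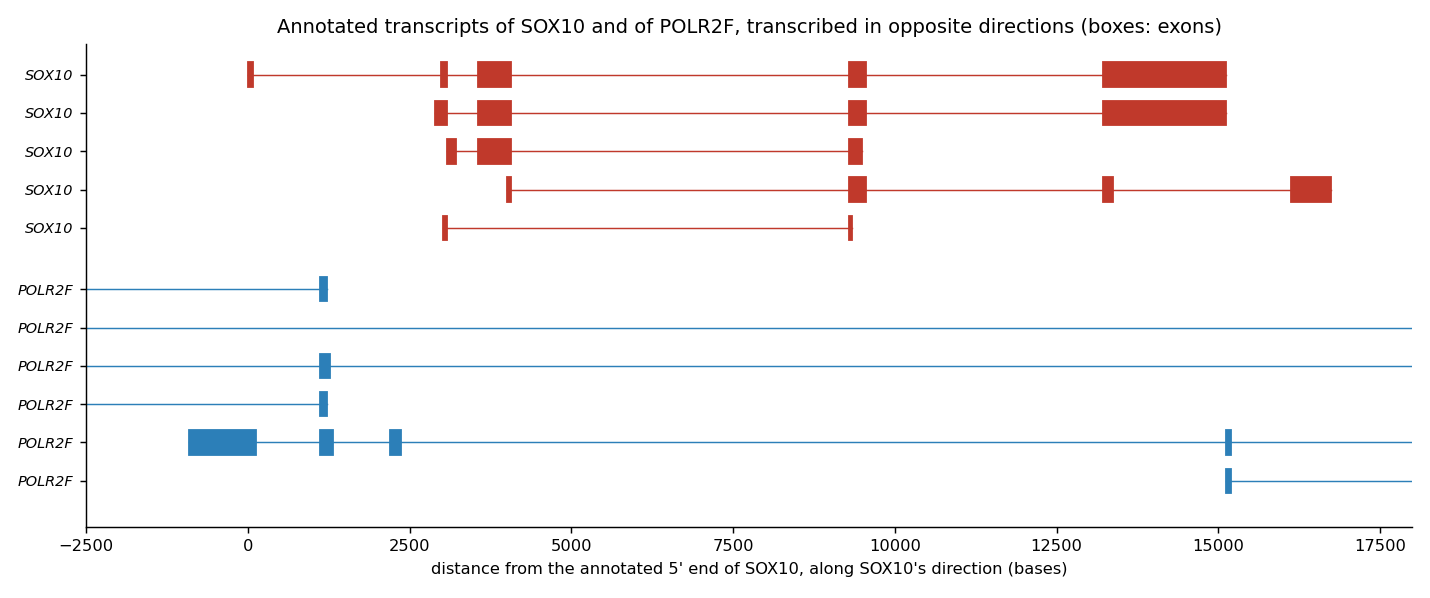
Annotated transcripts of SOX10 (red) and POLR2F (blue) drawn to scale by distance in bases from the 5′ end of SOX10, with exons as boxes and introns as lines. The exon overlap is 89 bases in all, and most SOX10 exon sequence lies in POLR2F introns.

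Levels were compared between genes per length, as CPM per kb of the principal transcript. SNAI1 averaged 10.4 ± 2.00 and TFAP2C 8.44 ± 2.86 CPM per kb (SD, n = 9 libraries), and their ranges overlapped. SOX10 followed at 3.33 ± 0.965 and PAX3 at 0.462 ± 0.104 CPM per kb, each with no overlap with the gene above it. SNAI2, MSX1, MSX2 and DLX5 averaged 0.145, 0.115, 0.0964 and 0.0759 CPM per kb, with overlapping ranges, and TFAP2A and TFAP2B averaged 0.0211 and 0.00159 CPM per kb, with ranges that reached into that of DLX5. Within families, 1 member was far above the next in the AP-2 and SNAI families: TFAP2E averaged 0.181 and SNAI3 1.01 CPM per kb. In the SoxE family, SOX9 averaged 13.1, SOX10 3.33 and SOX8 2.03 CPM per kb. SOX9 was above SOX10, and SOX10 above SOX8, in each of the 9 libraries on this scale.

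**Figure D3:**
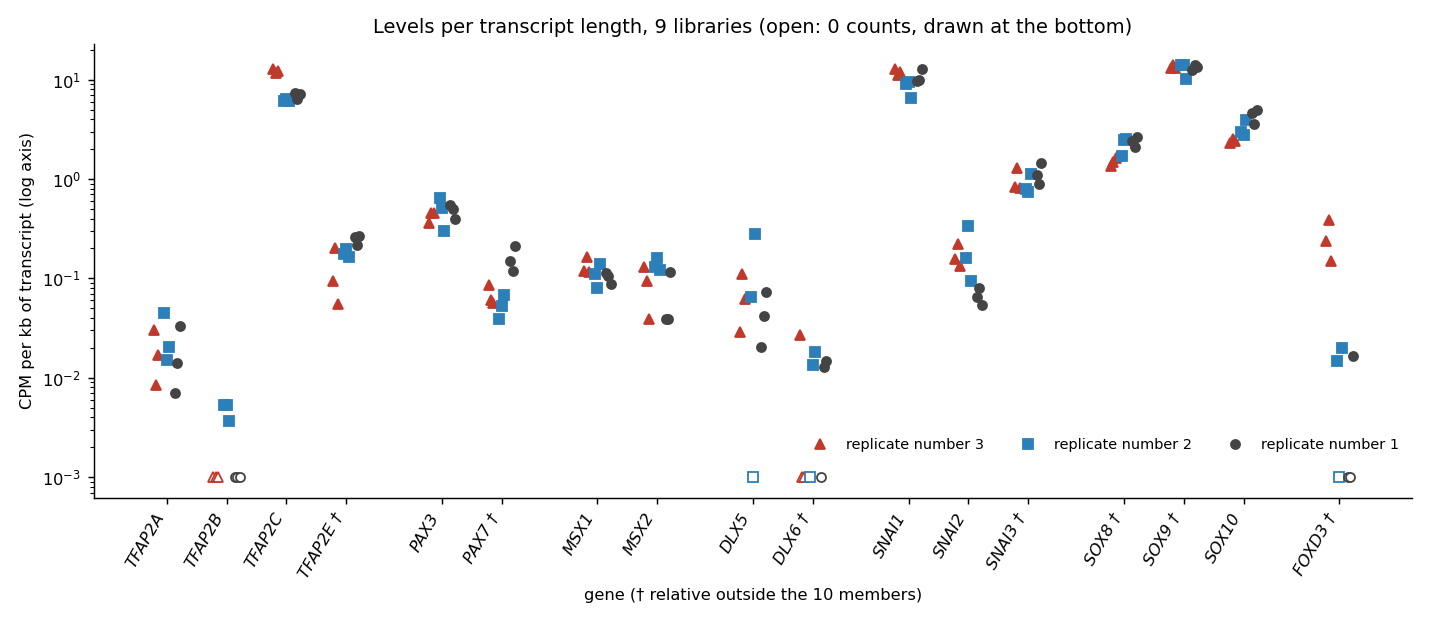
CPM per kb of principal transcript (log axis) in the 9 libraries for the members and, marked with a dagger, their relatives and FOXD3. SNAI1, TFAP2C and SOX9 stand near or above 6, whereas TFAP2A, TFAP2B and DLX6 stay under 0.05.

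Bending was compared with the flat control and the curved shapes with each other, the pairs named in the study's design. None of the 7 members tested passed in any of these comparisons (edgeR quasi-likelihood, Benjamini-Hochberg adjusted over 23075 genes), and 0% of all genes were called in each. At an unadjusted p under 0.05 stood 4.54% of genes in the concave comparison with flat, 9.25% in the convex one, 0.282% between the curved shapes and 3.89% in an F test among all shapes, and 0 of the 7 members in each. Concave and flat libraries were fully separated in 6.73% of genes, convex and flat ones in 16.7% and concave and convex ones in 3.56%, and for 0 of the 7 members in each. DESeq2 and limma voom also called 0 members. The median log2 fold change of the 7 tested members, beside that of all genes tested, was 0.03 and 0.01 for concave against flat, 0.01 and 0.01 for convex against flat, and 0.05 and -0.0033 between concave and convex. Concave and convex cultures were set against the same flat libraries, so the comparisons with flat are not independent. In bulk RNA, fewer cells that express a gene and less RNA per cell cannot be told apart.

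TFAP2C averaged 24.9 ± 10.2 CPM in concave, 23.3 ± 8.55 in convex and 24.3 ± 9.44 in flat cultures (SD, n = 3 each), and its log2 fold changes were 0.03 for concave against flat (95% interval -0.77 to 0.84) and -0.07 for convex against flat (-0.87 to 0.74). With the replicate number as a block these were 0.03 (SE 0.125, edgeR adjusted p = 0.927) and -0.06 (SE 0.125, adjusted p = 0.813). Between libraries of the same number, on the log2(CPM + 0.1) scale, concave minus flat was 0.02, 0.0031 and 0.06 and convex minus flat -0.16, 0.07 and -0.08 for numbers 1, 2 and 3. SNAI1 had narrower intervals, at 0.01 (-0.56 to 0.58) for concave and -0.04 (-0.61 to 0.53) for convex against flat. Without flat 2 these became -0.23 and -0.29. SOX10 averaged 9.44 ± 3.37 CPM in concave, 8.49 ± 1.61 in convex and 10.8 ± 3.59 in flat cultures, and its log2 fold changes were -0.19 (-0.91 to 0.53) and -0.34 (-1.06 to 0.38). PAX3 stood at 0.43 (-0.30 to 1.17) and 0.34 (-0.40 to 1.07). These intervals come from the fit without the replicate number. For SOX10, concave minus flat between libraries of the same number was -0.09, -0.39 and -0.08 for numbers 1, 2 and 3. Convex minus flat was -0.44, -0.51 and 0.06 on the same log2(CPM + 0.1) scale. With the replicate number as a block, SOX10 did not pass the F test among shapes (edgeR adjusted p = 0.616).

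The largest log2 fold change between shapes among the 5 members that average at least 15 counts per library was that of SNAI2 in convex against flat cultures. SNAI2 averaged 0.471 ± 0.284 CPM in convex and 0.209 ± 0.0883 in flat cultures (SD, n = 3 each), a log2 fold change of 1.16 (95% interval -0.21 to 2.54, edgeR adjusted p = 0.514). The convex library was above the flat one of the same number at each number, by 0.33, 1.44 and 0.58 for numbers 1, 2 and 3 on the log2(CPM + 0.1) scale. With the replicate number as a block, which pairs convex with flat libraries here, the log2 fold change was 1.07 (SE 0.427, adjusted p = 0.264). Without convex 2 it was 0.64 (edgeR adjusted p = 0.755). SNAI2 differed by -0.73 (95% interval -2.08 to 0.61) in concave against convex cultures.

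**Figure D4:**
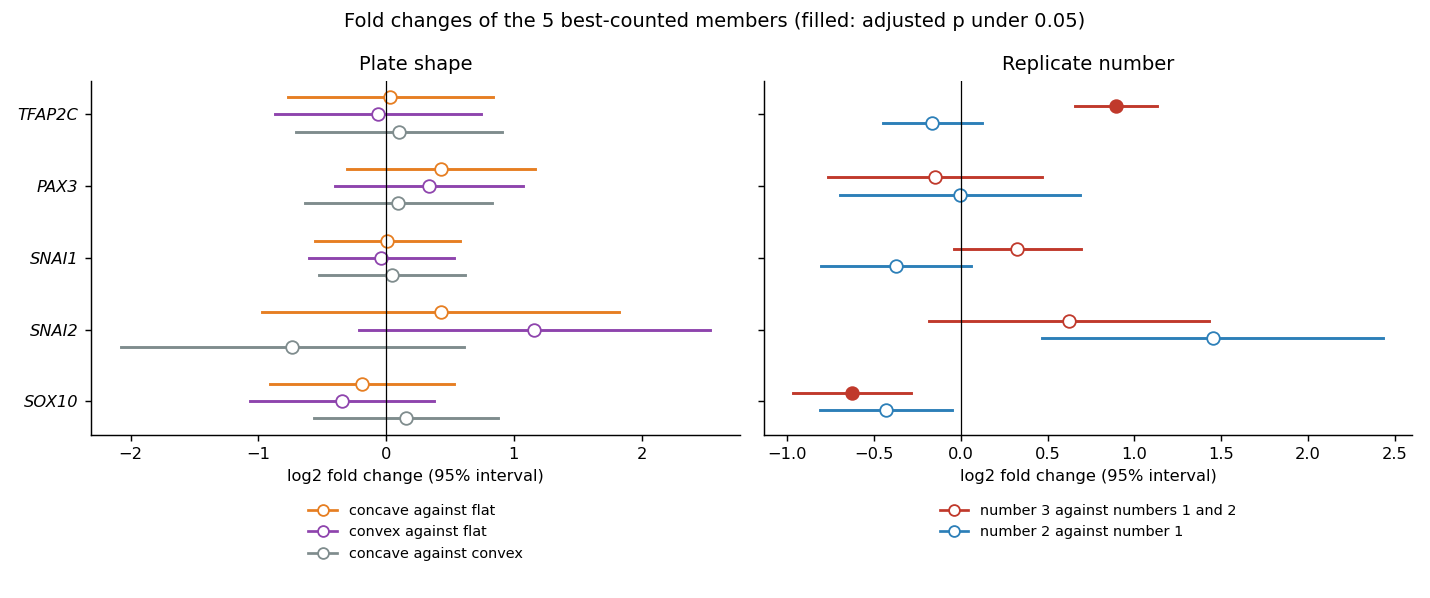
Log2 fold changes (horizontal axes, dots) with 95% intervals (lines) of the 5 members that average at least 15 counts per library, for plate shapes on the left and replicate numbers on the right. Only TFAP2C and SOX10 in number 3 against numbers 1 and 2 are filled, meaning an adjusted p under 0.05, and every interval on the left crosses 0.

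TFAP2C and SOX10 followed the replicate number. An F test among the 3 numbers, with plate shape in the model, called 2 of the 7 members tested, TFAP2C (edgeR adjusted p = 0.00323) and SOX10 (adjusted p = 0.0310), beside 11.8% of all genes. At an unadjusted p under 0.05 stood 3 of the 7, SNAI2 besides, against 28.4% of all genes. The labels do not say what the number stands for. Number 3 was set against numbers 1 and 2 because it had been seen to stand apart, and its p-values do not allow for that choice. In that contrast 17.9% of genes were called, 8.79% higher and 9.14% lower, and 2 of the 7 members were called, 1 in each direction (the same 2 at an unadjusted p under 0.05, beside 32.5% of genes). The members' count was near that background share and says nothing particular of them as a group.

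TFAP2C averaged 34.9 ± 1.69 CPM in libraries numbered 3 (n = 3) and 18.8 ± 1.496 CPM in those numbered 1 and 2 (n = 6), with no overlap between the ranges of 33.1 to 36.5 CPM in number 3 and 17.4 to 20.9 CPM in numbers 1 and 2. Non-overlap of this kind held for 24.2% of genes. The log2 fold change was 0.89 (SE 0.106, 95% interval 0.66 to 1.13, edgeR adjusted p = 0.00104), and it passed without each library in turn (adjusted p at most 0.0208). In the F test among numbers, TFAP2C missed the threshold without convex 3 (edgeR adjusted p = 0.0546), where 1.48% of all genes were called. Between numbers 2 and 1 it differed by -0.16 (95% interval -0.45 to 0.12).

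SOX10 averaged 6.90 ± 0.326 CPM in libraries numbered 3 (n = 3) and 10.9 ± 2.42 CPM in those numbered 1 and 2 (n = 6), again without overlap. Its log2 fold change was -0.63 (SE 0.151, 95% interval -0.97 to -0.29, edgeR adjusted p = 0.0219). The call was lost without concave 1, concave 3, convex 2, convex 3, flat 1 or flat 3 (adjusted p = 0.0519 to 0.0787), with log2 fold changes between -0.53 and -0.78. In the F test among numbers, SOX10 passed without concave 2 or flat 2 (adjusted p = 0.0269 and 0.00588) and missed the threshold without each of the other 7 libraries (edgeR adjusted p = 0.0648 to 0.162). Number 2 was also below number 1, at 9.31 ± 1.79 CPM in number 2 against 12.5 ± 1.95 CPM in number 1, a log2 fold change of -0.43 that did not pass (edgeR adjusted p = 0.556, with 0% of genes called). The SoxE relative SOX8, a crest factor named here after its values were seen, averaged 4.54 ± 0.446 CPM in libraries numbered 3 and 7.03 ± 1.05 CPM in those numbered 1 and 2, a log2 fold change of -0.63 (edgeR adjusted p = 0.0294). SOX9, which shares the longest identical run with SOX10, differed by 0.05 (95% interval -0.23 to 0.33). The differences between these SoxE genes in response were not tested.

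The other members did not pass between number 3 and numbers 1 and 2. SNAI1 averaged 20.1 ± 1.38 CPM in number 3 and 16.2 ± 3.37 CPM in numbers 1 and 2 (log2 fold change 0.32, edgeR adjusted p = 0.203), and SNAI2 0.381 ± 0.101 CPM in number 3 and 0.292 ± 0.236 CPM in numbers 1 and 2 (0.63, adjusted p = 0.263). PAX3 averaged 0.953 ± 0.126 CPM in number 3 and 1.09 ± 0.273 CPM in numbers 1 and 2 (-0.15, adjusted p = 0.750). SNAI2 showed another order: libraries numbered 1 stood lowest, at 0.12 to 0.177 CPM, below all those numbered 2 and 3 at 0.2105 to 0.744 CPM, a separation seen in 7.42% of genes. Its log2 fold change for number 2 against number 1 was 1.45 (95% interval 0.47 to 2.43, edgeR adjusted p = 0.501). At an unadjusted p under 0.05, SNAI2 and SOX10 stood among 8.54% of genes in this contrast. Without flat 2, SNAI2 also passed the F test among numbers (edgeR adjusted p = 0.0487), beside 21% of all genes called.

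Companion lists were read in the same contrast, number 3 against numbers 1 and 2, and every count below stands beside 8.79% of genes higher and 9.14% lower and a median log2 fold change of 0.01 over all genes. None of the lists had a gene called between plate shapes. Of 14 other border genes tested, 3 were higher and 3 lower (median -0.06). The lower ones were the zinc-finger factors ZIC1, ZIC2 and ZIC4, which position the border and neural plate: ZIC1 averaged 3.17 ± 0.874 CPM in number 3 and 10.3 ± 3.52 CPM in numbers 1 and 2. The proto-oncogene MYC, expressed at the border in frog embryos, was higher, at 21.8 ± 5.74 CPM in number 3 against 9.32 ± 2.65 CPM in numbers 1 and 2. Of 13 other crest specifiers tested, 2 were higher and 4 lower (median 0.05, and -0.05 when scaled by library size only). MYCN was higher, at 102.4 ± 8.49 CPM in number 3 against 52.1 ± 7.82 CPM in numbers 1 and 2.

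FOXD3, a forkhead factor of both pluripotent cells and early crest, was counted as the other crest specifier called higher. It had 88 counts over the 3 libraries numbered 3 and 6 over the other 6, of which 3 were at 0. It passed the filter through the libraries in which it was high and so had to differ: its call and fitted fold change support nothing, and 1 crest specifier was called higher where genes needed 1 CPM or more in 3 libraries. The same can hold for other low-count genes in the list counts. LMO4, NR2F2, SOX5 and SOX8 were the 4 called lower (SOX5 and SOX8 named after their values were seen), and LMO4, a LIM-only cofactor, averaged 45.7 ± 6.15 CPM in number 3 against 75.2 ± 14.9 CPM in numbers 1 and 2.

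Of 16 genes of migrating crest and its derivatives tested, 3 were higher and 5 lower (median -0.48). The neurotrophin receptor gene NGFR, often used to sort crest cells, averaged 22.3 ± 2.46 CPM in number 3 and 49.9 ± 6.61 CPM in numbers 1 and 2. In the opposite direction, the receptor gene ERBB3 was higher, at 54.8 ± 5.70 CPM in number 3 against 28.9 ± 4.49 CPM in numbers 1 and 2. The receptor gene KIT was higher as well, at 25.6 ± 3.82 CPM in number 3 against 11.9 ± 3.01 CPM in numbers 1 and 2. The summed level of the 20 listed genes was 315 to 334 CPM in number 3 and 358 to 409 CPM in numbers 1 and 2, without overlap.

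Of 14 genes of the epithelial-mesenchymal transition tested, 4 were higher and 5 lower. All 4 higher ones belong to epithelia: EPCAM and CDH1 for cell adhesion, CLDN7 for tight junctions and ESRP1 for epithelial splicing. CDH1, the E-cadherin gene that SNAI1 represses, averaged 622 ± 19.98 CPM in number 3 and 240.1 ± 69.3 CPM in numbers 1 and 2, while SNAI1 itself did not pass. The 5 lower ones, named after their values were seen, were ZEB1, ZEB2, CDH2, VIM and MMP2, among which ZEB2, a repressor of epithelial genes that is also active in crest, averaged 48.3 ± 11.9 CPM in number 3 and 117.4 ± 26.7 CPM in numbers 1 and 2. Of 24 border-inducing signals and BMP or WNT targets, 3 were higher and 8 lower (median -0.23). The BMP target ID1 was higher, at 5.67 ± 0.188 CPM in number 3 against 2.18 ± 0.725 CPM in numbers 1 and 2. In contrast, ID2 was lower, at 21.4 ± 3.71 CPM in number 3 against 77.02 ± 19.4 CPM in numbers 1 and 2. ID3 and ID4, named after their values were seen, lay on the side of ID1. ID3 stood at 41.4 to 44.3 CPM in number 3 and at 18.3 to 37.8 CPM in numbers 1 and 2. ID4 stood at 18.02 to 18.4 CPM in number 3 and at 10.6 to 17.4 CPM in numbers 1 and 2.

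Genes that mark other lineages were called too. Non-neural ectoderm had 6 of 11 tested genes higher and 0 lower (median 0.89), among them the epithelial factors GRHL2, at 17.8 ± 2.25 CPM in number 3 against 4.17 ± 1.03 CPM in numbers 1 and 2, and OVOL1, at 3.26 ± 0.648 CPM in number 3 against 0.364 ± 0.143 CPM in numbers 1 and 2. The summed level of its 12 genes was 696 to 790.4 CPM in number 3 and 429.9 to 834 CPM in numbers 1 and 2, so the sums overlapped. All 11 tested genes of this list had a log2 fold change above 0, called or not. TP63 and GATA3, which mark surface ectoderm, stayed at or under 0.0704 and 0.5103 CPM. Other genes of the list were far higher: the keratin genes KRT8, KRT18 and KRT19 stood at 216 to 397, 59.5 to 172 and 104 to 275 CPM. Pluripotency had 8 of 12 higher and 0 lower, with sums of 5326 to 5466 CPM in number 3 and 3542 to 3978 CPM in numbers 1 and 2. Early neuroectoderm had 0 of 14 higher and 9 lower, with sums of 1970.0 to 2280.0 CPM in number 3 and 2507 to 3135 CPM in numbers 1 and 2. Preplacodal ectoderm had 0 of 7 called, amnion and trophectoderm 2 of 3 higher and 0 lower, and mesoderm and endoderm 3 of 7 higher and 1 lower. The part of these cell types in the TFAP2C and SOX10 differences was not tested.

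Without convex 3 the calls were fewer. Higher and lower were then 1 and 1 for border genes, 1 and 0 for crest specifiers, 1 and 2 for migrating crest, 4 and 0 for the epithelial-mesenchymal transition, 1 and 2 for signals, 3 and 0 for non-neural ectoderm, 0 and 4 for early neuroectoderm and 5 and 0 for pluripotency, beside 4.54% of all genes. Amnion and trophectoderm had 1 of 3 tested genes higher without convex 3, 0 of 3 without concave 3 and 4 of 4 without flat 1. Genes lower in the epithelial-mesenchymal list numbered 3 without concave 1, convex 1 or convex 2, and those in the signals list 4 without concave 1 or convex 2 and 5 without convex 1 or flat 3. Migrating crest had 3 lower without concave 3.

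**Figure D5:**
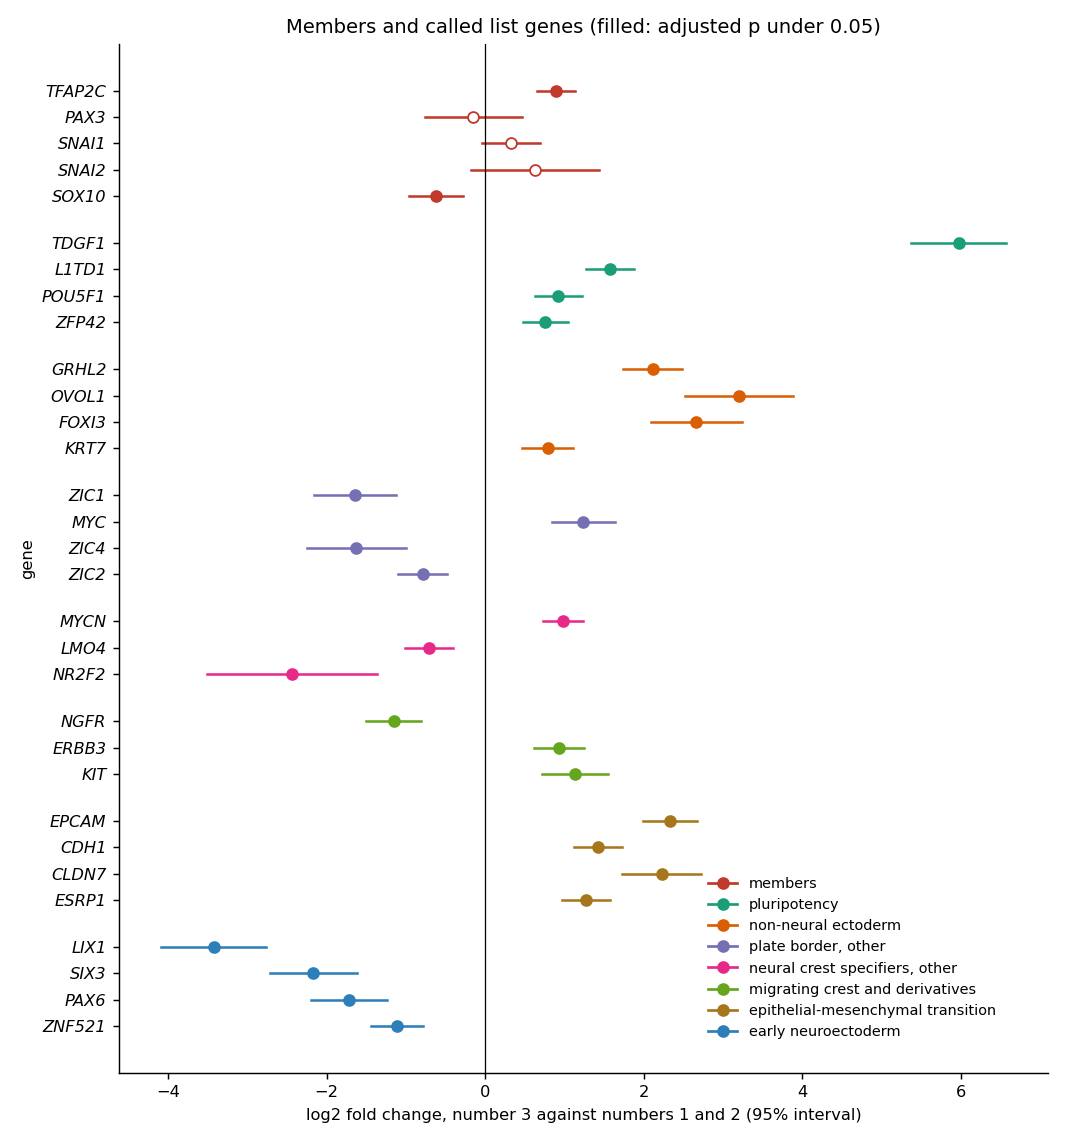
Log2 fold changes (horizontal axis) of libraries numbered 3 against those numbered 1 and 2, with 95% intervals, for the 5 best-counted members and for up to 4 called genes of each of 7 companion lists (colours). TFAP2C lies on the same side as all the pluripotency and non-neural ectoderm genes shown. Only called list genes are drawn, and these lists had 0 genes called lower, so that shared side follows from the choice of genes. Of the migrating crest genes shown, NGFR lies on the side of SOX10 and ERBB3 and KIT on the other. FOXD3 is not drawn.

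For the 4 members that average at least 1 CPM, the genes most alike across the 9 libraries were found by Pearson r of log2 CPM among 11954 genes averaging at least 5 CPM. These are descriptions over libraries that share shape, number and depth, and the highest of so many values is large by selection. TFAP2C went most with ADRA2A (r = 0.99), CPLX2 (0.99) and MAL2 (0.99). ADRA2A, an adrenergic receptor gene, stood at 12.7 to 14.5 CPM in libraries numbered 3 and at 2.65 to 5.01 CPM in the others. SOX10 went most with EML2 (r = 0.99), OPLAH (0.98) and PYROXD2 (0.98), and EML2, a microtubule-associated protein gene, stood at 9.91 to 10.5 CPM in libraries numbered 3 and at 11.7 to 22.7 CPM in the others. SNAI1 went most with CHRNB4, ADSS2 and PDZRN3 (0.97 to 0.99) and PAX3 with CENPC, PGAP1 and MARCHF6 (0.98 to 0.99). No crest or border gene of the companion lists was among these 12. Only 3 of 11954 genes were taken per member, and listed genes averaging under 5 CPM were left out. This absence therefore does not show whether the members follow crest or border genes.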

How the data were processed

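Polyadenylated RNA was measured in 9 libraries, 3 per plate shape. The deposited table holds raw gene counts from the authors; the submitters' processing notes name HISAT2, featureCounts and GRCh38, without versions, annotation or strand setting. Columns were matched to libraries by shape and replicate number in the labels, leaving 0 per-sample columns unused. The 10 members and the 11 companion lists (161 symbols, all matched) were chosen with earlier results of these data known.

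Fits were made with edgeR 4.0.16 in R 4.3.3 (filterByExpr with a minimum count of 10, TMM, robust quasi-likelihood F tests), and fits covered 23075 genes. The shape fit had 1 coefficient per shape, and its common biological coefficient of variation was 0.329. The number fit had shape and number as factors, with 0.217. P-values are two-sided and adjusted by Benjamini-Hochberg over all genes of each of 7 tests. An adjusted p under 0.05 was called. The scripts were tested on simulated data. Library totals ran from 49420082 to 64763412, and no pair of replicates differed by as little as sampling noise (chi-square per degree of freedom 19.7 to 284.6).

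As alternatives, TMM was replaced by DESeq2 size factors or by library size only, and further ones were no filter beyond 1 count, at least 1 CPM in 3 libraries, DESeq2 1.42.0, limma voom (limma 3.58.1), a replicate block, no shape term, a single term for number 3, each library left out and, chosen after seeing the data, libraries numbered 1 and 2 only. Fold changes are printed for the 5 members averaging at least 15 counts per library, a limit set after values were seen. Genes outside the 10 were named by rule: up to 4 called genes per list with the smallest p, and the 3 genes most correlated with each member averaging at least 1 CPM. Named outside this rule, after their values were seen, were relatives of the members, overlapping genes, SOX5, ID3, ID4 and the 5 lower epithelial-mesenchymal genes. So were the fate markers SOX2, OTX2, NANOG, TP63 and GATA3 and the keratin genes KRT8, KRT18 and KRT19. A gene that the rule selects is not reported here. Lengths, positions and overlaps come from GENCODE v29. Replicate numbers were checked for pairing by correlating deviations from group means: for numbers 1, 2 and 3, r was 0.379, 0.0211 and 0.338 for concave with flat, 0.372, 0.397 and 0.62 for convex with flat, and 0.579, 0.29 and 0.612 for concave with convex, so with a minimum of 0.1 for each number the numbers paired convex with flat and concave with convex, and not concave with flat. The pairing is read from the data, not from the labels.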

Additional observations from a re-analysis of the deposited data

Results flagged for a closer look

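PAX3 is listed because its libraries numbered 3 stood on opposite sides of the other 2 in different shapes. The library numbered 3 minus the mean of those numbered 1 and 2 was -0.54 CPM in concave cultures, -0.11 CPM in convex cultures and 0.25 CPM in flat cultures. Concave 3 and convex 3 were below both other libraries of their shape, and flat 3 was above both. The difference between shapes was not tested. PAX3 had 39, 58 and 59 counts in concave 3, convex 3 and flat 3, so its levels carry sizeable counting error. The part of that error in these differences was not tested.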

How the results depend on the processing

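No member was called between plate shapes under the replicate block or any other alternative run, and no member between numbers 2 and 1. The block raised the genes at an unadjusted p under 0.05 from 1047 to 2046 for concave against flat, from 2135 to 4222 for convex against flat and from 65 to 147 for concave against convex, again with 0 called. SNAI2 in convex against flat was the single member under that p with the block. TFAP2C was called higher in number 3 in all 17 alternatives and SOX10 called lower in 11 of 17, always in the same direction. Members called among numbers ran from 0 to 3, and in number 3 against numbers 1 and 2 from 1 to 2, without each library in turn. Among numbers the count was 0 without convex 3, beside 1.48% of all genes called, and 3 without flat 2, beside 21%. The share with all libraries was 11.8%. In number 3 against numbers 1 and 2 the share of all genes called ran from 4.54% without convex 3 to 23.5% without flat 2. Scaling by library size only moved the median log2 fold change of all genes in number 3 against numbers 1 and 2 by -0.10. Apart from the runs that left out single libraries, directions that changed did so for differences near 0. PAX3 in number 2 against number 1 (-0.01) became 0.0029 with DESeq2 size factors, 0.0038 with DESeq2 and 0.0168 without the shape term. SNAI1 in convex against flat (-0.04) became 0.0058 by library size only, 0.0017 by limma voom, 0.0044 with the replicate block and 4e-04 in libraries numbered 1 and 2. There it also became -0.0429 in concave against flat (0.01) and -0.0433 in concave against convex (0.05). TFAP2C in concave against flat became -0.0023 by limma voom. The cause was not tested. Without each library in turn, directions also changed for larger differences, with main values in brackets here. PAX3 ran from -0.083 to 0.31 in concave against convex (0.10) and from -0.27 to 0.23 in number 2 against number 1 (-0.01). In number 3 against numbers 1 and 2, PAX3 ran from -0.45 to 0.098 (-0.15). SNAI1 ran from -0.099 to 0.15 in concave against convex (0.05) and from -0.23 to 0.18 in concave against flat (0.01). In convex against flat, SNAI1 ran from -0.29 to 0.14 (-0.04). SOX10 ran from -0.16 to 0.37 in concave against convex (0.15) and from -0.51 to 0.049 in concave against flat (-0.19). TFAP2C ran from -0.26 to 0.44 in concave against convex (0.10) and from -0.35 to 0.38 in concave against flat (0.03). In convex against flat, TFAP2C ran from -0.41 to 0.27 (-0.07). Over all genes, number 2 against number 1 called 0 by edgeR (1970 at an unadjusted p under 0.05), 147 by DESeq2 and 0 by limma voom. Depth leaves TFAP2A, TFAP2B, DLX5, MSX1 and MSX2 at or under 23 counts a library, and the 95% interval of MSX2 in number 3 against numbers 1 and 2 ran from -1.41 to 1.20.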
